A study of Mus musculus with 20 samples.

Results

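The circadian clock genes described here are Per1, Per2, Per3, Cry1, Cry2, Arntl, Clock, Nr1d1, Nr1d2 and Dbp, which were taken by gene symbol and make up 10 of the 22048 genes counted in each dataset. RNA from the whole arcuate nucleus (ARC), a hypothalamic nucleus that holds the AgRP and POMC neurons of feeding control, was captured by laser from frozen sections, amplified and sequenced. The study asked how corticosterone (Cort), the main glucocorticoid of rodents, alters ARC gene expression. Each of the 4 groups had 5 samples, of which the study kept 3 vehicle and 4 Cort samples per dataset after principal component analysis. Left out were vehicle samples C07 and C09 with Cort sample C08 at 2 days, and vehicle samples C01 and C05 with Cort sample C06 at 4 weeks. All mice were C57BL6/J males, aged 10 weeks at the start, housed singly, with no genetic change. The 2 day vehicle group drank water with 1% ethanol, and the 2 day Cort group drank 75 µg/ml corticosterone in the same vehicle. The 4 week groups drank the same solutions for 4 weeks and were then fasted for 16 h and refed for 24 h before death. The ARC was cut at another section thickness, on other slides, with another laser system and on another sequencer in the 4 week study, so duration of treatment cannot be told apart from these differences or from the fast.

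In the clock of most cells, CLOCK and ARNTL (also called BMAL1) bind DNA as a pair at E-boxes and switch on the Per, Cry, Nr1d and Dbp genes. PER and CRY proteins return to the nucleus and block that pair, NR1D1 and NR1D2 (REV-ERB alpha and beta) repress Arntl at ROR elements, and DBP acts on its own targets at D-boxes. Central rhythms are set by the suprachiasmatic nucleus, another nucleus of the hypothalamus. Food intake and glucocorticoids also set clocks in other tissues, and Per1 is a known target of the glucocorticoid receptor. All mice were killed at the same hour in the light phase, so each level below is a single point of a daily rhythm, and neither phase nor amplitude was measured.

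Upstream sequence was searched in the 250 bases before the start of each RefSeq promoter entry (GRCm38.p6), which covered 13 windows of 9 members. Per2 had no entry. The 3 stretches below are shown because they carry the E-box of Per1 and Cry1, the letters bound by CLOCK and ARNTL, and the paired D-box of Per3, the letters bound by DBP. Capitals mark the matches, and in Per1 the second match is the reverse complement of the ROR core.
Per1, chr11:69098758-69098842, plus strand: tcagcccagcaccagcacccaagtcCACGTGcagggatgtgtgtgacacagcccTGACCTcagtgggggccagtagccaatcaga
Cry1, chr10:85185084-85185139, minus strand: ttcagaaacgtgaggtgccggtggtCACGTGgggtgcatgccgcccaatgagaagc
Per3, chr4:151044791-151044895, minus strand: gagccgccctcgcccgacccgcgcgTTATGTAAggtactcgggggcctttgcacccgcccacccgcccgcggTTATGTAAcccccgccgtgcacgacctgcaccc
None of these stretches overlaps an annotated exon. The E-box (CACGTG) was found in Per1, 166 bases before the start, and in Cry1, 60 bases before it, and 6.02% of 32851 promoter windows held it. The D-box (TTACGTAA or TTATGTAA) lay 205 and 158 bases before the start of Per3 and was present in 0.932% of all windows. The ROR core (AGGTCA) was found in Per1, Clock and Nr1d2, against 14.02% of all windows, and the glucocorticoid response element in none of the 13 windows, against 0.387% of all windows. All motifs were searched on both strands, none of those printed overlaps another, and a match is a description of the letters only.

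The counts summed to between 2487063 and 5748223 per sample at 2 days and between 1065776 and 5196364 at 4 weeks, so that 3 counts are worth 0.522 to 1.21 and 0.577 to 2.81 CPM, the count scaled to a fixed library total. Agrp was present in every sample, with 18.03 CPM as its lowest value. Levels are given as CPM after TMM scaling over the 10 samples of a dataset. Glucocorticoid-induced genes served as a check of the treatment. Of 15 genes listed, 6 had an unadjusted P below 0.05 at 2 days and all 6 were higher with Cort, against 3.14% of genes, while at 4 weeks 4 of the 14 tested had it and all 4 were higher, against 2.95% of genes. Fam107a, Fkbp5, Glul and Mt2 were among the 6 at 2 days, and Fam107a was among the 4 at 4 weeks. The paper had already named these as raised by Cort in the same data. The comparison with all genes was therefore partly fixed in advance. Fkbp5, a co-chaperone of the glucocorticoid receptor, was 9.52 to 25.9 CPM in the 5 vehicle samples and 30.7 to 98.7 CPM in the 5 Cort samples at 2 days, and the groups did not overlap. At 4 weeks it reached 165 CPM in vehicle sample C02, above all 5 Cort samples.

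No clock gene passed the test of Cort against vehicle at either time. Among the 7 samples kept, edgeR (quasi-likelihood F-test, Benjamini-Hochberg Padj below 0.1) called 0 of 10 members at 2 days, where 0.065% of 12309 genes were called, and 0 of 10 at 4 weeks, where 0.0446% of 11211 genes were. At an unadjusted P below 0.05 the members numbered 0 of 10 at 2 days, where 5.97% of genes passed, and 1 of 10 (Clock) at 4 weeks, where 4.91% did. By direction this was 0 members higher and 0 lower with Cort at 2 days, against 3.14% and 2.83% of genes, and 1 higher and 0 lower at 4 weeks, against 2.95% and 1.95%. DESeq2 also called 0 of 10 members at Padj below 0.1 in each dataset. It called 54 of 12309 genes at 2 days and 43 of 11211 at 4 weeks. The vehicle and Cort values of all 10 members overlapped among the 7 samples kept, where 6.63% of genes at 2 days and 6.53% at 4 weeks did not overlap. They also overlapped among all 10 samples, where 0.801% and 0.942% did not. P-values weigh the difference between groups against the spread between these samples.

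Among the 7 samples kept, 5 of 10 members were higher with Cort at 2 days, the median log2 fold change was -0.03 and that of all genes tested was 0.02. The median size of the change, without its sign, was 0.25 for the members and 0.26 for all genes. At 4 weeks 7 of 10 were higher, and the median log2 fold change was 0.53 against 0.04 for all genes, with median sizes of 0.64 and 0.51. Over all 10 samples 4 of 10 members were higher at 2 days, with a median of -0.18 against -0.02 for all genes, and 5 of the 9 tested at 4 weeks, with a median of 0.20 against 0.01.

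Some summed levels of cell type markers, 5 genes a list, separated the groups among the samples kept. Among single genes, 6.63% at 2 days and 6.53% at 4 weeks did so. At 2 days arcuate neuron markers were 752 to 1153 CPM with vehicle and 1306 to 1747 CPM with Cort, and oligodendrocyte markers 225 to 269 and 307 to 455 CPM. At 4 weeks arcuate neuron markers went the other way, at 763 to 1193 CPM with vehicle and 311 to 643 CPM with Cort. General neuron markers were 2576 to 2691 and 2880 to 3163 CPM there, and astrocyte markers 2365 to 2437 and 2521 to 3710 CPM. Tanycyte markers overlapped, at 368 to 524 CPM with vehicle and 177 to 402 CPM with Cort. At an unadjusted P below 0.05, 3 of 4 arcuate genes tested were higher with Cort at 2 days, against 3.14% of all genes. At 4 weeks 1 of 4 was lower, against 1.95% of all genes, and Kiss1 was at or near 0 in every sample. Of the oligodendrocyte genes 1 of 5 was higher at that threshold at 2 days. At 4 weeks 0 of 5 neuron genes and 1 of 5 astrocyte genes were, against 2.95% of all genes, and 1 of 4 tanycyte genes was lower. Whatever their P, 3 of 5 neuron genes and 3 of 5 astrocyte genes were higher with Cort at 4 weeks. Over all 10 samples each of these lists overlapped between the groups. Agrp and Npy are on the arcuate list. The paper reports Agrp as raised with Cort after the shorter treatment and Npy as reduced after the longer one. The arcuate sum therefore cannot tell a change in these transcripts from a change in the number of neurons. The part of cell composition in the clock gene values was not tested.

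**Figure D1:**
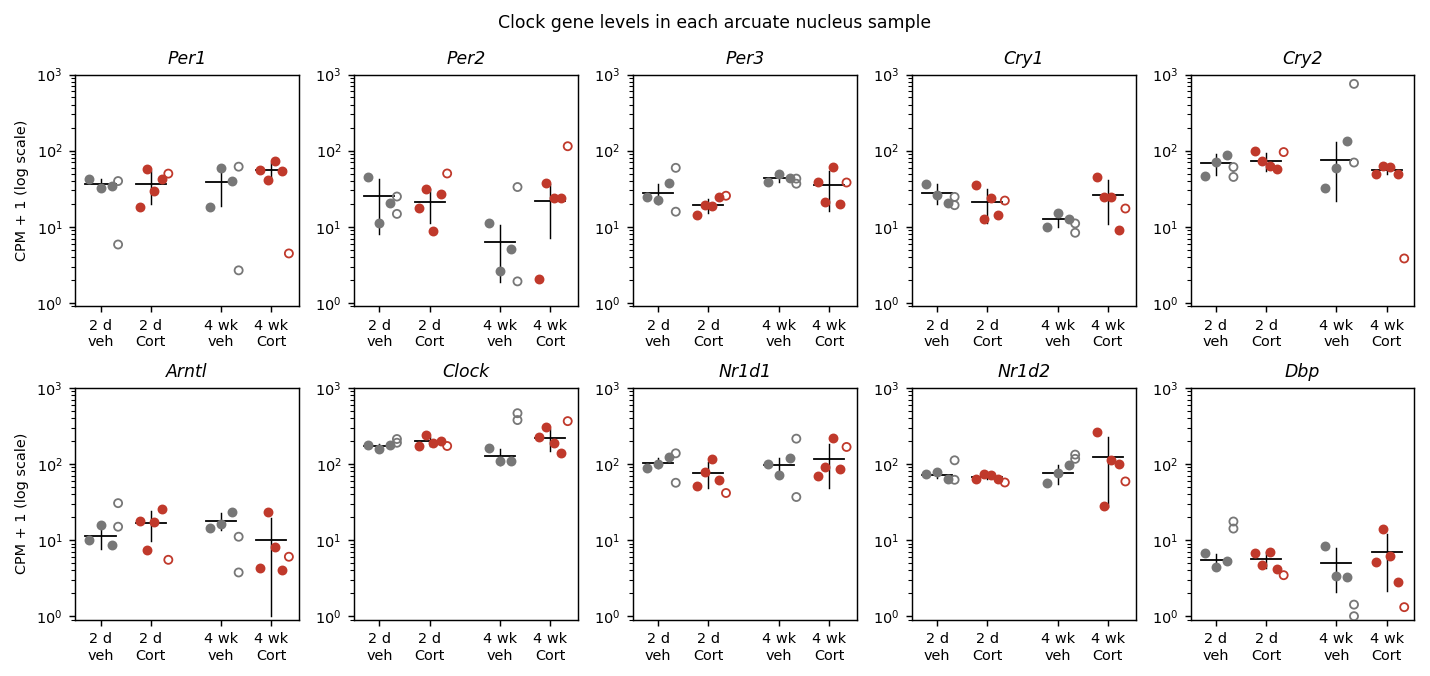
CPM + 1 of each clock gene on a log axis in the vehicle (grey) and Cort (red) samples at 2 days and 4 weeks; filled points are samples kept by the study, open points those left out, and black lines the mean and SD of the samples kept, with the lower end of the SD stopped at 0 CPM. No member separates the groups, and the 4 week points are more scattered, as for Per2, which runs from 0.918 to 113 CPM.

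Of the activators, Clock was expressed evenly between the 2 day samples and Arntl was not. Clock, the histone acetyltransferase subunit of the activating pair, stood at 179, 158 and 178 CPM in the 2 day vehicle samples kept and at 189 and 212 CPM in those left out. The Cort samples had 172, 237, 188 and 201 CPM, and 171 CPM in the sample left out. These groups overlapped closely, and the log2 fold change over the samples kept was 0.22 ± 0.16 (SE; 95% interval of the fold 0.92 to 1.48; edgeR Padj = 0.92). Clock thus had the narrowest interval of the 10 members at 2 days.

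At 4 weeks Clock was 159, 109 and 107 CPM in the vehicle samples kept and 226, 309, 189.7 and 140.2 CPM in the Cort samples kept. Of these, 3 of 4 Cort samples lay above all 3 vehicle samples, and the log2 fold change was 0.78 ± 0.35 (edgeR Padj = 0.99). The samples left out were higher than any sample kept, at 376 and 463 CPM with vehicle and 364 CPM with Cort. Over all 10 samples the log2 fold change was -0.0024 (95% interval -0.87 to 0.87, edgeR Padj = 0.999). Leaving out any 1 of the 7 gave log2 fold changes of 0.55 to 1.00, and without vehicle samples C03 or C04 or Cort sample C09 no member had an unadjusted P below 0.05.

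Arntl, the partner of CLOCK, was among the least expressed members and varied widely within groups. At 2 days the vehicle samples kept had 8.96, 14.9 and 7.52 CPM and those left out 29.6 and 13.98 CPM. With Cort it was 17.1, 6.40, 16.3 and 24.3 CPM, and 4.50 CPM in the sample left out. The highest vehicle sample thus lay above every Cort sample, and the log2 fold change was 0.62 ± 0.53 among the samples kept (edgeR Padj = 0.93) and -0.12 over all 10.

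At 4 weeks Arntl was 13.5, 15.3 and 22.4 CPM with vehicle and 3.30, 22.6, 7.21 and 3.07 CPM with Cort in the samples kept. The samples left out had 2.75 and 10.1 CPM with vehicle, the former from 3 counts, and 5.04 CPM with Cort. Cort sample C08 was the highest of all 10, while the other 4 Cort samples were below the 3 vehicle samples kept. For Arntl the log2 fold change was -0.92 ± 1.10 (95% interval of the fold 0.10 to 2.66; edgeR Padj = 0.99), and -1.93 without C08.

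**Figure D2:**
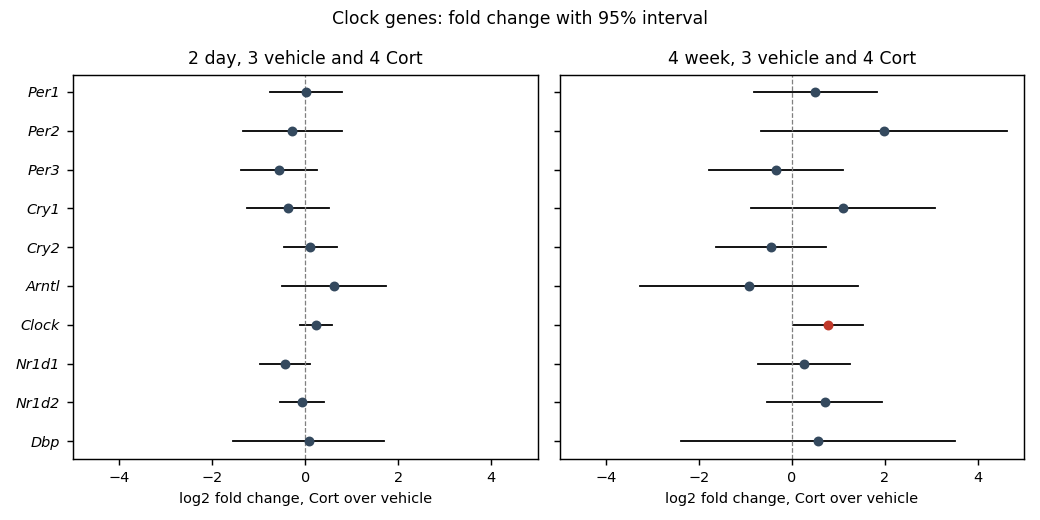
Log2 fold change of Cort over vehicle (points) with its 95% interval (lines) for each clock gene in the 3 vehicle and 4 Cort samples kept at 2 days and at 4 weeks, from edgeR; red marks an unadjusted P below 0.05. Only the interval of Clock at 4 weeks, 0.02 to 1.53, lies off 0, and the intervals of all 10 genes are wider at 4 weeks than at 2 days.

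Among the Period genes, whose proteins form the repressor complex, Per1 was nearly level between the 2 day groups. The vehicle samples kept had 42.0, 31.3 and 33.3 CPM, and those left out 38.9 and 4.85 CPM. The Cort samples kept had 17.4, 56.6, 28.8 and 41.0 CPM, and the sample left out 48.9 CPM. The Cort values lay on either side of the vehicle values, with a mean of 35.9 ± 16.8 CPM (SD, n = 4) against 35.5 ± 5.72 CPM (SD, n = 3). Its log2 fold change was 0.02 ± 0.37 (95% interval of the fold 0.59 to 1.73; edgeR Padj = 0.997), an interval that covers changes of up to 1.73-fold in the gene of this list best known as a glucocorticoid target. Leaving out 1 sample at a time gave log2 fold changes of -0.29 to 0.25.

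At 4 weeks Per1 was 17.2, 58.3 and 39.4 CPM with vehicle and 55.5, 39.8, 71.1 and 52.6 CPM with Cort in the samples kept, with 71.1 CPM in sample C09. The samples left out had 60.6 and 1.68 CPM with vehicle and 3.46 CPM with Cort. The groups covered nearly the same range, and the log2 fold change among the samples kept was 0.50 ± 0.62 (edgeR Padj = 0.99).

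Among the samples kept, Per2 had the largest fold change of the members, at 4 weeks, and the largest SD of log2 CPM. In the samples kept it was 10.1, 1.61 and 4.03 CPM with vehicle and 1.03, 36.9, 23.2 and 23.1 CPM with Cort. Thus 3 of 4 Cort samples were above all 3 vehicle samples and the other, C07, was below them all. The samples left out had 0.918 and 32.3 CPM with vehicle, the former from 1 count, and 113 CPM with Cort. The log2 fold change was 1.98 ± 1.25 among the samples kept (95% interval of the fold 0.63 to 24.7; edgeR Padj = 0.99) and 1.99 over all 10 (edgeR Padj = 0.99). Without C07 it was 2.37 (edgeR Padj = 0.95).

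At 2 days Per2 did not show this pattern. It was 43.8, 10.1 and 19.5 CPM in the vehicle samples kept, 13.8 and 24.0 CPM in those left out, 16.9, 30.3, 7.68 and 25.9 CPM in the Cort samples kept and 49.1 CPM in the Cort sample left out. The groups covered nearly the same range, with a log2 fold change of -0.28 ± 0.51 (edgeR Padj = 0.97). The difference between the 4 week and the 2 day fold change, tested as an interaction in edgeR over the 14 samples kept, was 2.24 ± 1.29 on the log2 scale for Per2 (edgeR Padj = 0.85), which did not pass.

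Per3, whose protein binds the other PER proteins and CRY, was lower on average with Cort in each dataset. The 2 day vehicle samples kept had 23.4, 21.6 and 36.4 CPM and those left out 14.8 and 58.5 CPM, against 13.1, 18.5, 17.7 and 23.5 CPM with Cort and 24.6 CPM in the Cort sample left out. The vehicle samples left out held the lowest and the highest value of their group, and the log2 fold change was -0.57 ± 0.39 (edgeR Padj = 0.91). At 4 weeks the vehicle samples were even, from 35.8 to 49.1 CPM in all 5. The Cort samples kept had 37.5, 20.5, 60.3 and 18.8 CPM and the sample left out 37.1 CPM, and the log2 fold change was -0.34 ± 0.68 (edgeR Padj = 0.99). The highest Cort value was again that of C09.

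The cryptochromes, which with PER repress CLOCK and ARNTL, had fold changes of opposite sign in each dataset, none of which passed the test. Cry1 at 2 days was 35.6, 25.4 and 19.5 CPM with vehicle and 33.97, 11.8, 22.9 and 13.1 CPM with Cort among the samples kept, 18.2 and 23.7 CPM in the vehicle samples left out and 21.1 CPM in the Cort sample left out, with a log2 fold change of -0.37 ± 0.42 (edgeR Padj = 0.95). At 4 weeks it was 8.79, 14.1 and 11.6 CPM with vehicle, and 7.34 and 10.1 CPM in the vehicle samples left out. The Cort samples kept had 44.4, 23.3, 23.7 and 7.99 CPM, and the sample left out 16.4 CPM.

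All 5 vehicle samples at 4 weeks were thus at or below 14.1 CPM and 4 of the 5 Cort samples were above it, with Cort sample C10 inside the vehicle range. The log2 fold change of Cry1 was 1.10 ± 0.94 (95% interval of the fold 0.54 to 8.48; edgeR Padj = 0.99) and 1.13 over all 10 samples. An exact permutation test of the 5 against 5 log2 CPM values (2-sided) gave P = 0.056, the lowest of the 20 such tests on the 10 members in both datasets and above the smallest value it can give, 0.0079. With 3 against 4 samples the smallest is 0.057. These P-values were not adjusted over the 20 tests, and the genes were chosen with earlier results known. The lowest of them is therefore not read as a change.

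Cry2 in the 2 day samples was 45.3, 69.4 and 87.2 CPM with vehicle and 98.3, 72.1, 62.0 and 55.7 CPM with Cort among those kept, with 44.1 and 59.9 CPM in the vehicle samples left out and 94.8 CPM in the Cort sample left out. These gave a log2 fold change of 0.11 ± 0.27 (edgeR Padj = 0.97). At 4 weeks the Cort samples kept were the most even of any group for this gene, at 49.1, 62.1, 60.3 and 48.3 CPM, and the vehicle samples kept had 31.4, 57.9 and 134 CPM.

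The 4 week samples left out differed most from the rest in Cry2. Vehicle sample C05 had 753 CPM, from 1796 counts, and Cort sample C06 had 2.83 CPM, from 9 counts, while the other vehicle sample left out had 68.8 CPM. For Cry2 the log2 fold change was -0.45 ± 0.56 among the samples kept (edgeR Padj = 0.99) and -2.26 over all 10 samples (edgeR Padj = 0.97, with an unadjusted P below 0.05). Without vehicle sample C04 the log2 fold change turned to 0.29.

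The nuclear receptors Nr1d1 and Nr1d2, which repress Arntl, were among the best expressed members per length. Nr1d1 at 2 days was 88.3, 99.4 and 121 CPM with vehicle and 50.01, 76.4, 115 and 60.9 CPM with Cort in the samples kept, and 137, 55.6 and 40.5 CPM in the vehicle samples C07 and C09 and the Cort sample left out. Among the samples kept 3 of 4 Cort samples were below all 3 vehicle samples and C06 was inside their range. The log2 fold change was -0.43 ± 0.26 (edgeR Padj = 0.88).

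Without C06 the log2 fold change of Nr1d1 at 2 days was -0.71 (edgeR Padj = 0.54), with an unadjusted P below 0.05 that it did not have with all 7 samples. C06 carried 326 CPM of Avp, the vasopressin gene expressed in magnocellular and suprachiasmatic neurons, and the Cort sample left out, C08, carried 289.9 CPM, while the other 8 samples had 8.34 to 48.2 CPM. Vip, the peptide of the suprachiasmatic core, was at most 5.46 CPM in these 10 samples. The part of Avp-expressing tissue in the Nr1d1 values was not tested. The exons of Nr1d1 share 8.55% of their bases with Thra on the opposite strand, and without strand in the counting reads of that stretch cannot be told apart.

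At 4 weeks Nr1d1 was 97.4, 70.8 and 118 CPM in the vehicle samples kept and 69.1, 90.7, 216 and 85.8 CPM in the Cort samples kept. The vehicle samples left out had 35.8 and 214 CPM and the Cort sample 166 CPM. The log2 fold change of 0.26 ± 0.46 (edgeR Padj = 0.99) became -0.23 without C09, the sample with 216 CPM.

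Nr1d2 was the most even member of the 2 day samples kept, with 72.6, 77.6 and 62.8 CPM with vehicle and 63.3, 73.8, 70.4 and 61.7 CPM with Cort. The vehicle samples left out had 60.9 and 111 CPM and the Cort sample 56.1 CPM, and the log2 fold change was -0.07 ± 0.23 (95% interval of the fold 0.68 to 1.33; edgeR Padj = 0.98). At 4 weeks the vehicle samples had 55.1, 74.0 and 97.2 CPM, and 116 and 132 CPM in those left out. The Cort samples kept had 261, 26.9, 110.3 and 98.4 CPM and the sample left out 57.9 CPM, so that the highest and the lowest value of the dataset were both with Cort. For Nr1d2 the log2 fold change was 0.71 ± 0.58 (edgeR Padj = 0.99), between 0.05 and 1.04 when 1 sample was left out, and the lowest of these was without C07.

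Dbp, the output transcription factor driven directly by CLOCK and ARNTL, was measured from few counts. At 2 days it rested on 8 to 65 counts per sample. It was 5.72, 3.45 and 4.27 CPM in the vehicle samples kept, 13.2 and 16.5 CPM in those left out, 5.80, 3.70, 5.89 and 3.18 CPM in the Cort samples kept and 2.46 CPM in the Cort sample left out. Among the samples kept the log2 fold change was 0.08 ± 0.78 (95% interval of the fold 0.34 to 3.24; edgeR Padj = 0.996). Over all 10 samples it was -1.01 (edgeR Padj = 0.96), and the vehicle samples left out were the 2 highest.

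At 4 weeks Dbp had 7.44, 2.41 and 2.24 CPM with vehicle and 4.13, 13.1, 5.15 and 1.84 CPM with Cort in the samples kept. No read was counted in vehicle sample C01, where 3 counts would be worth 2.81 CPM, and 0.419 and 0.315 CPM in C05 and C06 are below that limit as well. Cort over vehicle, the log2 fold change was 0.57 ± 1.39 (95% interval of the fold 0.19 to 11.4; edgeR Padj = 0.99), the widest interval of the members, and Dbp did not pass the filter on low counts over all 10 samples. Of its exon bases 18.01% are shared with Sphk2 on the opposite strand.

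Levels between genes were compared per length, as CPM per kilobase of exon over all 5 samples of a group. Nr1d1 ranked the highest in all 4 groups, with 32.6 ± 10.2 and 22.3 ± 9.44 (vehicle and Cort, SD) at 2 days and 34.8 ± 21.8 and 40.8 ± 20.5 at 4 weeks. It was followed at 2 days with vehicle by Nr1d2 at 14.2 ± 3.71, Clock at 13.3 ± 1.41, Cry2 at 9.68 ± 2.84, Cry1 at 7.33 ± 2.05, Per1 at 5.34 ± 2.62, Per2 at 3.80 ± 2.25, Per3 at 3.22 ± 1.80, Dbp at 2.88 ± 1.96 and Arntl at 1.99 ± 1.16. Nr1d1 was above Nr1d2 in 4 of these 5 vehicle samples, and Nr1d2 above Clock in 3 of 5.

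Arntl or Dbp was the lowest in every group, at 1.99 and 1.41 at 2 days and 0.836 and 1.10 at 4 weeks (vehicle and Cort). With Cort at 2 days Clock stood in the second place, and at 4 weeks Cry2 (vehicle), with a mean raised by the sample at 753 CPM, and Nr1d2 (Cort) did. Of the 36 pairs of neighbours over the 4 groups, the higher gene was above the lower in all 5 samples for Nr1d1 over Clock and Nr1d2 over Per1 (2 day Cort), Nr1d2 over Per1, Per3 over Cry1 and Cry1 over Arntl (4 week vehicle) and Clock over Per1 (4 week Cort), and in at most 4 of 5 for the others.

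The spread between samples of one group was larger at 4 weeks. The pooled SD of log2 CPM within groups, over the 7 samples kept, had a median of 0.41 for the members at 2 days and 0.73 at 4 weeks, and 10 of 10 members were more variable at 4 weeks. All genes tested moved likewise, from 0.46 to 0.94. Over all 10 samples Per3 was the exception, at 0.59 and 0.50. The most even members were Nr1d2 (0.14) and Clock (0.16) at 2 days, and Clock (0.42) at 4 weeks, all among the samples kept, and over all 10 samples at 4 weeks Clock was at 0.80. Among the samples kept Per2 had the largest SD of the members in each dataset, at 0.93 and 1.72, above 83.4% and 83.2% of genes, while over all 10 samples at 2 days Per1, at 1.01, was above Per2, at 0.89.

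Suprachiasmatic tissue was looked for with Vip, Avp, Grp, Nms, Prok2, Lhx1 and Six6, since its clock genes cycle strongly. At 4 weeks Vip was 65.5 CPM in Cort sample C09 and at most 0.238 CPM in the other 9 samples. Lhx1 was 78.8 CPM in C09 and at most 7.07 CPM elsewhere, and Nms was 4.64 CPM in C09 and 0 elsewhere. The summed level of the 7 genes was 251 CPM in C09, 14.8 to 70.4 CPM in the vehicle samples and at most 35.7 CPM in the other Cort samples.

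C09 was also the highest 4 week sample for Nr1d1, Per1 and Per3, the members named above. The part of suprachiasmatic tissue in these values was not tested. Without C09 the 4 week log2 fold changes were 0.35 for Per1, -0.76 for Per3, -0.23 for Nr1d1, 0.83 for Clock and 1.92 for Per2. In bulk RNA, fewer cells of a type and less RNA per cell cannot be told apart.

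**Figure D3:**
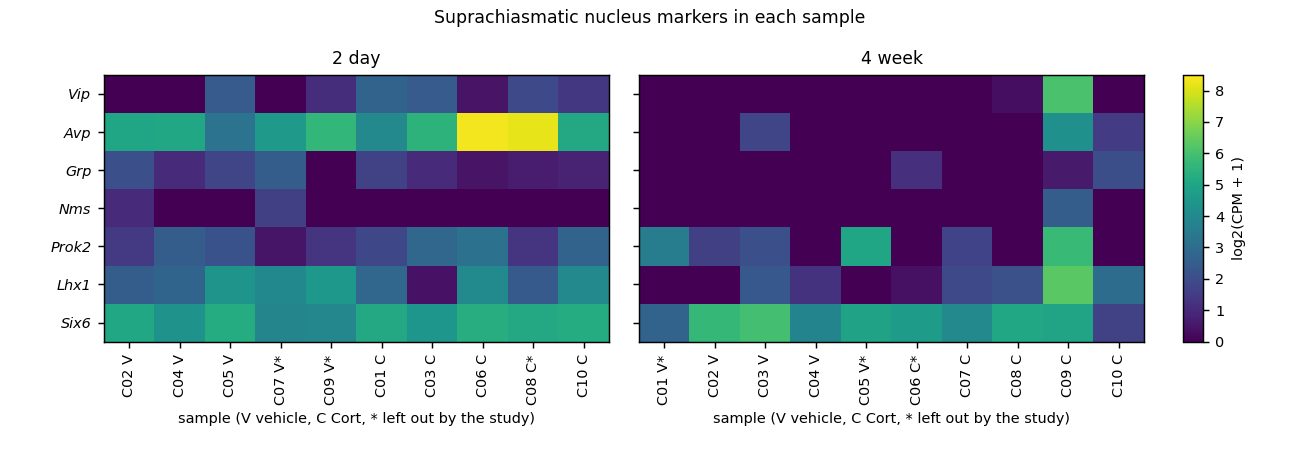
Log2(CPM + 1) of 7 suprachiasmatic nucleus markers (rows) in the 10 samples of each dataset (columns; V vehicle, C Cort, star left out by the study). At 4 weeks Vip, at 65.5 CPM, and Lhx1, at 78.8 CPM, stand out in Cort sample C09, and at 2 days Avp, at 326 and 289.9 CPM, in Cort samples C06 and C08.

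The difference between the 2 datasets in the response to Cort was tested as an interaction over the 14 samples kept. No member passed (0 of 10 at Padj below 0.1, 0.0157% of 12777 genes; 0 of 10 at an unadjusted P below 0.05, 6.49% of genes, made up of 3.51% above 0 and 2.98% below). The log2 difference, 4 week minus 2 day, ranged from -1.54 (Arntl, edgeR Padj = 0.89) to 2.24 (Per2), and was 1.48 ± 0.94 for Cry1 (edgeR Padj = 0.85). It was above 0 for 8 of 10 members, with a median of 0.53 against 0.02 for all genes tested. Over all 10 samples of each dataset it was above 0 for 6 of 10 members, with a median of 0.43 against 0.03.

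Of 24 other clock genes (kinases, ubiquitin ligases, further transcription factors and cofactors), 23 were tested at 2 days and 22 at 4 weeks, and 0 passed Padj below 0.1 in either. At an unadjusted P below 0.05, 1 of 23 was called at 2 days and 2 of 22 at 4 weeks, where 5.97% and 4.91% of all genes were. At 2 days Csnk1e, the casein kinase that marks PER proteins for degradation, had 64.9, 83.2 and 46.2 CPM with vehicle and 46.8, 40.1, 40.7 and 42.2 CPM with Cort among the samples kept (log2 fold change -0.60 ± 0.27; edgeR Padj = 0.82). The samples left out went the other way, at 53.0 and 27.1 CPM with vehicle and 65.3 CPM with Cort.

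At 4 weeks Rora, the activator that competes with NR1D1 at ROR elements, was 85.2, 87.2 and 46.6 CPM with vehicle and 289, 108, 429 and 90.1 CPM with Cort in the samples kept. These groups did not overlap, which held for 1 of the 22 other clock genes tested and for 6.53% of all genes. The log2 fold change of Rora was 1.64 ± 0.52 (edgeR Padj = 0.92). The samples left out had 41.3 and 309.8 CPM with vehicle and 21.7 CPM with Cort, and over all 10 samples the groups overlapped with a log2 fold change of 0.69 (edgeR Padj = 0.99). C09 had the highest value, and without it the log2 fold change was 1.14 (edgeR Padj = 0.98).

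Ppargc1a, a cofactor of ROR proteins that responds to fasting, was 51.1, 11.3 and 128 CPM with vehicle and 359, 127, 128 and 85.8 CPM with Cort in the 4 week samples kept. Its log2 fold change was 1.45 ± 0.66 (edgeR Padj = 0.99), and 0.67 over all 10 samples. Leaving out 1 sample gave 0.84, without Cort sample C07, to 2.48, without vehicle sample C04. At 2 days the log2 fold changes of Rora and Ppargc1a were 0.39 and 0.43 (edgeR Padj = 0.88 for each). The interaction of Rora had an unadjusted P below 0.05 and an edgeR Padj = 0.76, and that of Ppargc1a an edgeR Padj = 0.88. Timeless, a partner of the CRY proteins, was the 1 other of the 24 genes with an unadjusted P below 0.05 for the interaction (edgeR Padj = 0.75). No read of Timeless was counted in the 4 week Cort samples, against 1, 1 and 6 counts in the vehicle samples kept, so no fold is given.

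**Figure D4:**
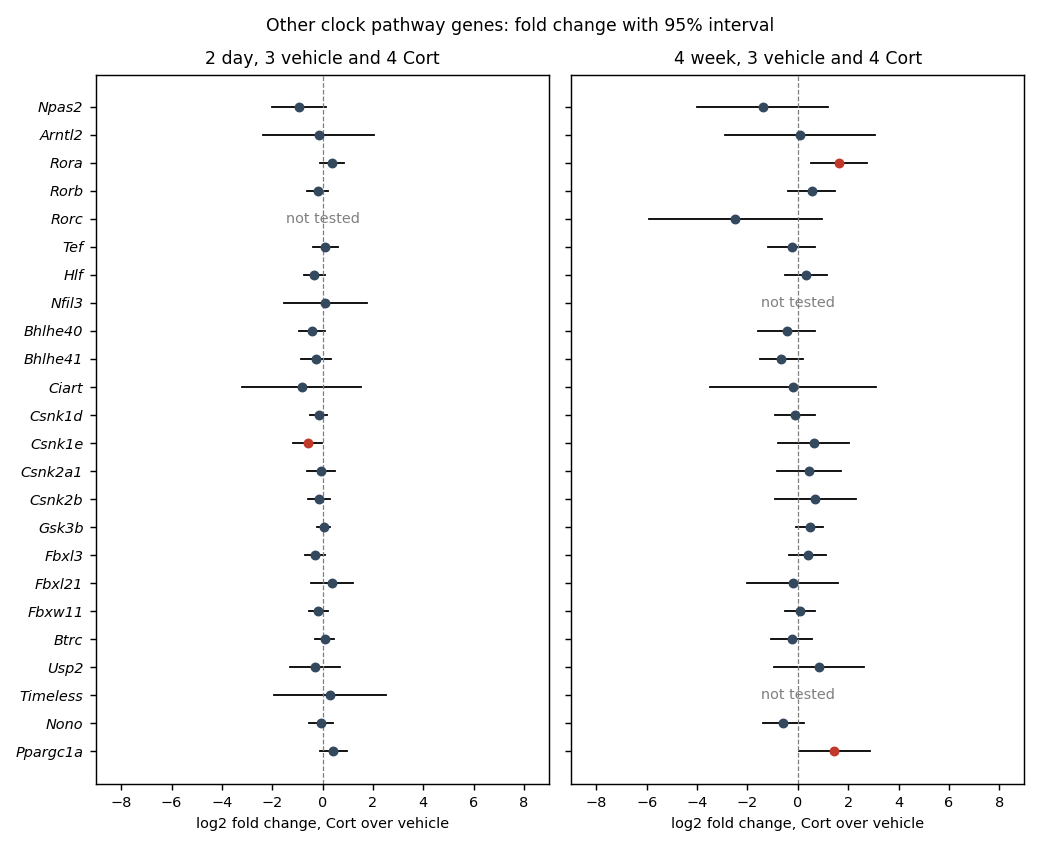
Log2 fold change of Cort over vehicle (points) with its 95% interval (lines) for 24 other clock genes in the 7 samples kept of each dataset, from edgeR; red marks an unadjusted P below 0.05. Csnk1e at 2 days, and Rora and Ppargc1a at 4 weeks, are the genes in red.

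Finally the members were compared with one another across samples, as Pearson's r of log2 CPM with group means removed (10 samples per dataset, which share library depth and dissection). Of 45 pairs, 9 had r above 0 in both datasets, 9 below 0 in both, and 27 had opposite signs. Arntl and Dbp, which are known to peak at different times of day in a running clock, were the 1 pair at or above 0.50 in both, with r = 0.50 at 2 days and 0.71 at 4 weeks, and both rest on low counts. Per2 and Nr1d1 had r = -0.63 at 2 days and 0.73 at 4 weeks, and Per1 and Nr1d1 had 0.49 and -0.63.

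**Figure D5:**
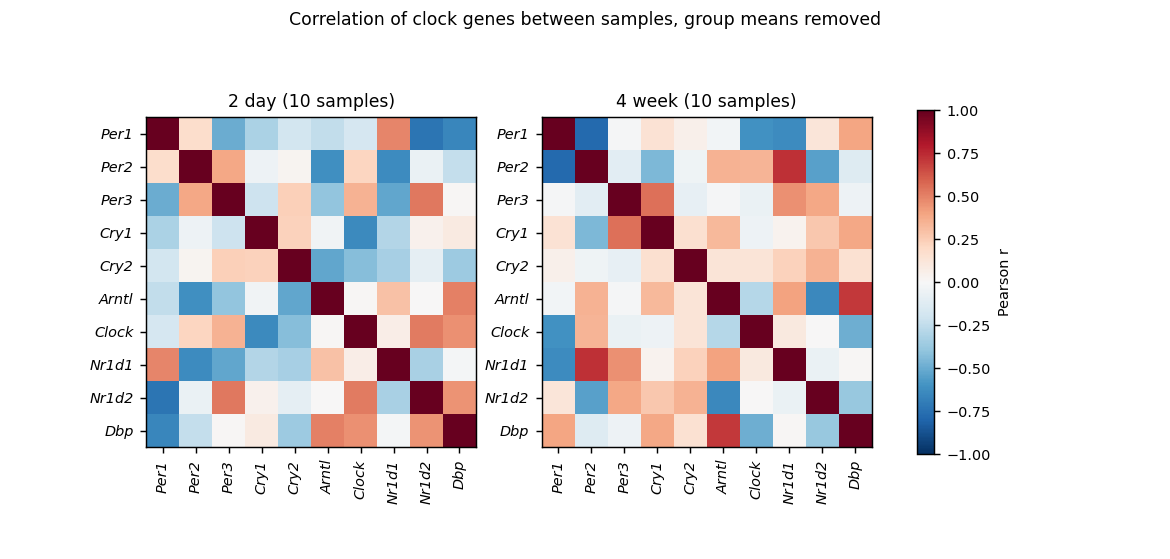
Pearson's r (colour, from -1 in blue to 1 in red) between each pair of clock genes over the 10 samples of a dataset, with group means removed. The Per2 and Nr1d1 square changes from blue at 2 days (-0.63) to red at 4 weeks (0.73), and 27 of 45 pairs differ in sign.

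The genes whose values ran most closely with Dbp were Srek1ip1, Gtf2a2, Fabp7, Eif4e2 and Mettl8 at 2 days (r from 0.92 to 0.95, of 9540 genes with at least 10 counts in all 10 samples) and Ncstn, Mrpl42, Fmn2, Fam135b and Ulk1 at 4 weeks (0.90 to 0.94, of 5612 genes). For Arntl they were Kcnj9, Vdac2, Synpo2, Zfp2 and Mpzl1 at 2 days (0.89 to 0.93) and Arf1, Prrc2a, Gabbr2, Ccnt1 and Reep2 at 4 weeks (0.89 to 0.92). No gene is on both lists of a member. These are the highest of 9540 or 5612 correlations over 10 samples, so high values can arise from the choice alone, and they were not tested. Dbp itself had fewer than 10 counts in some samples, with 8 in 2 day Cort sample C10 and 0 in 4 week vehicle sample C01. Arntl had 3 counts in the latter.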

How the data were processed

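Per the study's methods, the authors mapped single-end reads to GRCm38 with Rsubread and counted them per gene with featureCounts. The annotation release and the strand and multi-mapping settings are not given in the sources used here. Each deposited count is a raw count of a gene in a sample. The signal in the deposited normalized tables is the count divided by a DESeq2 size factor, and it was used only to pair symbols with gene identifiers and to check headers. At 2 days 5 of the 7 headers of that table do not match the raw column with the same values, so raw headers were used, with groups from the study's sample table. The log2 fold changes, the score and the p-values the authors deposited are their own comparisons and were not used.

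Counts were filtered with filterByExpr, scaled by TMM and compared with edgeR 4.0.16 (quasi-likelihood, 2-sided, no covariate) in R 4.3.3, with limma 3.58.1 and DESeq2 1.42.0 for alternatives. Log2 CPM carried a prior count of 2. Tables, exact tests and figures were made in Python 3.11.15 (scipy 1.17.1, matplotlib 3.10.9, numpy 2.4.6, pandas 2.3.3). Exon positions came from GENCODE and promoters from RefSeq. The fits were run on simulated data with 200 genes changed, and the share recovered is not reported here.

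Alternatives were DESeq2, upper quartile and relative log expression scaling, no filter, limma voom (quality weights), a minimum of 10 counts per sample, use of all 10 samples, CPM on total counts, and leaving out each sample. Totals of 1065776 to 5748223 counts set the precision, and floors of 3 counts cover only counting error in amplified RNA. The members and lists were chosen with earlier results of these data known. Named are all 10 members, other clock genes with an unadjusted P below 0.05 or without overlap of the groups, and the 5 genes closest to Dbp and to Arntl; single marker genes were named after their values were seen. Marker lists were summed in CPM per sample. Those not given with the results overlapped between vehicle and Cort among the samples kept: neurons, astrocytes and tanycytes at 2 days, oligodendrocytes at 4 weeks, and microglia, endothelial cells, ventromedial hypothalamus and immediate early genes in both datasets.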

Additional observations from a re-analysis of the deposited data

Results flagged for a closer look

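Each value here was the lowest of its group of 5 samples, further from the next sample on the log2 CPM scale than Dixon's 95% limit allows. Cry2 in 4 week Cort sample C06 was 2.83 CPM, Per1 in 2 day vehicle sample C09 was 4.85 CPM, and Per1 in 4 week Cort sample C06 was 3.46 CPM. All 3 come from samples that the study left out. The 10 members in 4 groups make 40 groups tested, of which 3 were past the limit, and chance flags about 1 in 20. The ratio was not taken on unlogged CPM.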

How the results depend on the processing

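No member passed Padj below 0.1 in any comparison or alternative. The lowest adjusted p of the named genes was 0.16 (Rora, 4 weeks, DESeq2), and 28 of 629 alternative log2 fold changes changed sign. Over all 10 samples these were Per2 (0.23), Arntl (-0.12), Dbp (-1.01) and Rora (-0.13) at 2 days, Clock (-0.0024) and Csnk1e (-0.34) at 4 weeks, and the interactions of Per1 (-0.033), Clock (-0.081) and Csnk1e (-0.12). With limma voom they were Per2 (0.10) and Dbp (-0.31) at 2 days. Leaving out 1 sample gave -0.29 to 0.25 for Per1, -0.65 to 0.44 for Per2, -0.11 to 0.35 for Cry2, -0.14 to 0.00030 for Nr1d2 and -0.082 to 0.29 for Dbp at 2 days. At 4 weeks it gave -0.80 to 0.29 for Cry2 and -0.23 to 0.45 for Nr1d1, and for the interaction -0.20 to 0.43 for Per3, -0.91 to 0.19 for Cry2 and -0.22 to 1.30 for Dbp. The cause was not tested.

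Counts of all genes with Padj below 0.1 were 8, 5 and 2 (2 days, 4 weeks, interaction). They were 54, 43 and 39 by DESeq2, 24 and 9 at 2 days and 4 weeks without the filter, 3 at 4 weeks with upper quartile scaling, 2, 1 and 0 over all 10 samples, and 4 and 0 (2 days, interaction) with limma voom. With 1 sample left out they ran from 1 to 16, from 0 to 10 and from 0 to 3. Members with an unadjusted P below 0.05 were 0, 1 and 0 of 10, where 5.97%, 4.91% and 6.49% of all genes passed. With 1 sample left out the members ran from 0 to 1, from 0 to 1 and from 0 to 2. All genes at that threshold ran from 552 to 796, from 479 to 555 and from 594 to 1085. With limma voom 1 member passed at 2 days (Nr1d1), where 705 of 11983 genes did. At 4 weeks 0 members passed with limma voom, where 557 of 10398 genes did. With upper quartile scaling 0 members passed at 4 weeks, where 532 of 11211 genes did. Over all 10 samples 1 member passed for the interaction (Cry2), where 779 of 12512 genes did. At 4 weeks the count of members was 0 without vehicle samples C03 or C04 or Cort sample C09. No paired analysis was possible because the table columns carry sample numbers that the labels do not tie to the replicate numbers. The paper assigned separate mice to vehicle or Cort and describes no pairing between them, so the groups were compared as independent. Depth limits Dbp, Per2 and Arntl at 4 weeks, each at or under 3 counts in at least 1 sample.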
